A study of Mus musculus with 9 samples.

Results

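Messenger RNA levels of 10 neuropeptide genes were described in the paraventricular nucleus of the hypothalamus (PVN) of mice. The genes were Avp, Oxt, Crh, Trh, Sst, Pdyn, Penk, Nts, Cck and Tac1, listed by gene symbol because magnocellular and parvocellular PVN neurons make their peptides, and all 10 were found among the 27179 genes of the count table. All 10 also passed the filter on low counts that left 17344 genes for testing. RNA was sequenced from PVN tissue punches of 9 wild type male mice, 3 in each group, whose strain is C57BL/6 in the labels and C57BL/6J in the study's methods. Control mice were fed chow in which fat supplied 16% of calories for 12 weeks, and HFD mice a high fat diet in which it supplied 60% for the same time. HFD+Mino mice ate the high fat diet for 12 weeks and received minocycline, a tetracycline antibiotic that dampens microglial activation, at 40 mg/kg/day during the last 6 weeks. The diets began at 5 weeks of age, and the sample labels give an age of 35 days. Each library was made from bulk tissue, so fewer cells of a type and less RNA per cell cannot be told apart in any value below.

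Large magnocellular neurons of the PVN send axons to the posterior pituitary and release vasopressin, the antidiuretic hormone encoded by Avp, and oxytocin, encoded by Oxt, into the blood. Smaller parvocellular neurons release corticotropin-releasing hormone (Crh), which drives the pituitary-adrenal stress axis, and thyrotropin-releasing hormone (Trh), which drives the pituitary-thyroid axis, and they send projections to autonomic centers of the brainstem and spinal cord. Other peptides are made beside these hormones in the PVN or by cells around it, among them somatostatin, the opioid peptides of Pdyn and Penk, neurotensin, cholecystokinin and substance P.

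Avp and Oxt are neighbors that are transcribed toward each other. In RefSeq on GRCm38.p6, the mm10 build to which the reads were aligned, Avp lies on the minus strand at chr2:130580620-130582588 and Oxt on the plus strand at chr2:130574519-130577054, with 3565 bases between them. Their transcripts share an identical run of 127 bases, which is shown because reads of 50 bases that fall inside it cannot be assigned to 1 gene by their own sequence. All of the run is coding sequence of the neurophysin part of the precursors, and 125 of its bases lie in exon 2 of 3 of each gene (chr2:130581133-130581257 on the minus strand for Avp, chr2:130576591-130576715 on the plus strand for Oxt). It is given here from the GENCODE M21 transcripts on the coding strand.
Avp and Oxt shared run: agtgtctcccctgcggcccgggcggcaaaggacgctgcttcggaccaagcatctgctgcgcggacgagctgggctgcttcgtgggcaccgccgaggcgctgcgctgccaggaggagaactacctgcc
Of all 50-base stretches of the transcripts, 14.8% of those in Avp and 16% of those in Oxt occur in both. How the counting treated read pairs inside this run was not given in the sources used here, so a small part of each gene's count is uncertain. Among the other members, only Penk shared sequence with another annotated gene: 8.60% of its 50-base stretches also lie in A830012C17Rik, which overlaps 157 nt of its exons.

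The 250 bases before a RefSeq transcription start (GRCm38.p6) are shown for Avp, Oxt, Trh and Sst, the members whose HFD+Mino libraries all lay above all Control libraries. Capitals mark matches on either strand to the cyclic AMP response element (CRE) letters TGACGTCA, the E-box letters CACGTG or the nuclear receptor half-site letters AGGTCA, which reads TGACCT on the other strand. None of these motifs contains another. The starts used for Avp and Trh are the outer ends of the RefSeq genes, while those used for Oxt and Sst lie 1650 and 498 bases inside them.
Avp chr2:130582589-130582838, minus strand: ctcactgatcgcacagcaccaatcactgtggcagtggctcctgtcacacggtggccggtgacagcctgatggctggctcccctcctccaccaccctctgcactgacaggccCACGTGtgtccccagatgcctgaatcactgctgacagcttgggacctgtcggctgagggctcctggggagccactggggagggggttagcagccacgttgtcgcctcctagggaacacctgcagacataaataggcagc
Oxt chr2:130575919-130576168, plus strand: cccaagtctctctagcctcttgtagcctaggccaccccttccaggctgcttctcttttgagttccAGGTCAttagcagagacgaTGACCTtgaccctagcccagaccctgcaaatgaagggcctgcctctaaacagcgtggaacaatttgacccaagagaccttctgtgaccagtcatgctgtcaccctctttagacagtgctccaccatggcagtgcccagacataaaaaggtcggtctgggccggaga
Trh chr6:92244651-92244900, minus strand: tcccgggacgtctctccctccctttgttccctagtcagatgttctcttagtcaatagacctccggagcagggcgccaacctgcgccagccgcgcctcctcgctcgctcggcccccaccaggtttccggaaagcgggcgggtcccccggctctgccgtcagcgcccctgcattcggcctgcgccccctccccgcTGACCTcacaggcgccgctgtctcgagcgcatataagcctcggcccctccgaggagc
Sst chr16:23890845-23891094, minus strand: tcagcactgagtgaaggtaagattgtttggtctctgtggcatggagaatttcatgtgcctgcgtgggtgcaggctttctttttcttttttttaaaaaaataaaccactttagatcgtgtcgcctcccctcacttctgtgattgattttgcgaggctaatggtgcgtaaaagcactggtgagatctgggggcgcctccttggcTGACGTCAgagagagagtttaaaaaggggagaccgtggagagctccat
The Sst window held a CRE 48 to 41 bases before the start, and 1.55% of 32851 windows of this length held one. Oxt held a half-site at 185 to 180 and another at 166 to 161 bases, Trh held 1 at 57 to 52 bases, and 14.0% of windows held at least 1. Avp held an E-box at 139 to 134 bases, against 6.02% of windows. Entries of this kind matched 8 of the 10 members, the exceptions being Crh and Penk. Of the windows not shown, those of Cck and Tac1 held an E-box, and those of Pdyn and Nts held none of these letters. A match of letters is a description of the window and not evidence of a bound factor.

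The libraries held from 17728590 to 42326213 counts on genes, and mitochondrial genes took 1.21% to 6.21%. The mitochondrial share was 4.68% and 6.21% in HFD+Mino replicates 1 and 2 and at most 3.67% elsewhere. The ribosomal precursor RNA Rn45s took 0.430%, 0.367% and 0.350% in HFD and 0.0266% to 0.113% elsewhere. Levels are given as CPM, the usual counts relative to library size, with library sizes scaled by the trimmed mean of M values (TMM). The library labelled Control replicate 1 went against its tissue label: Otp had no count and Sim1, another transcription factor that defines PVN neurons, 0.770 CPM against 2.51 to 35.7 CPM in the other 8 libraries. In the same library the parvocellular peptide gene Ucn3 was at 0.0497 CPM against 16.4 to 113 CPM, the ependymal gene Ccdc153 at 0.522 CPM against 39.7 to 172 CPM, and the myelin gene Mbp at 18005 CPM against 1183 to 4361 CPM. Control replicate 2 held the most RNA of lateral hypothalamic peptides, with Pmch (melanin-concentrating hormone) at 2560 CPM and Hcrt (orexin) at 813 CPM, followed by Control replicate 1 with 391 and 73.4 CPM, against at most 51.2 and 7.02 CPM in the remaining 7 libraries. Some results that involve Control are therefore also given without Control replicate 1, and the others include it.

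**Figure D1:**
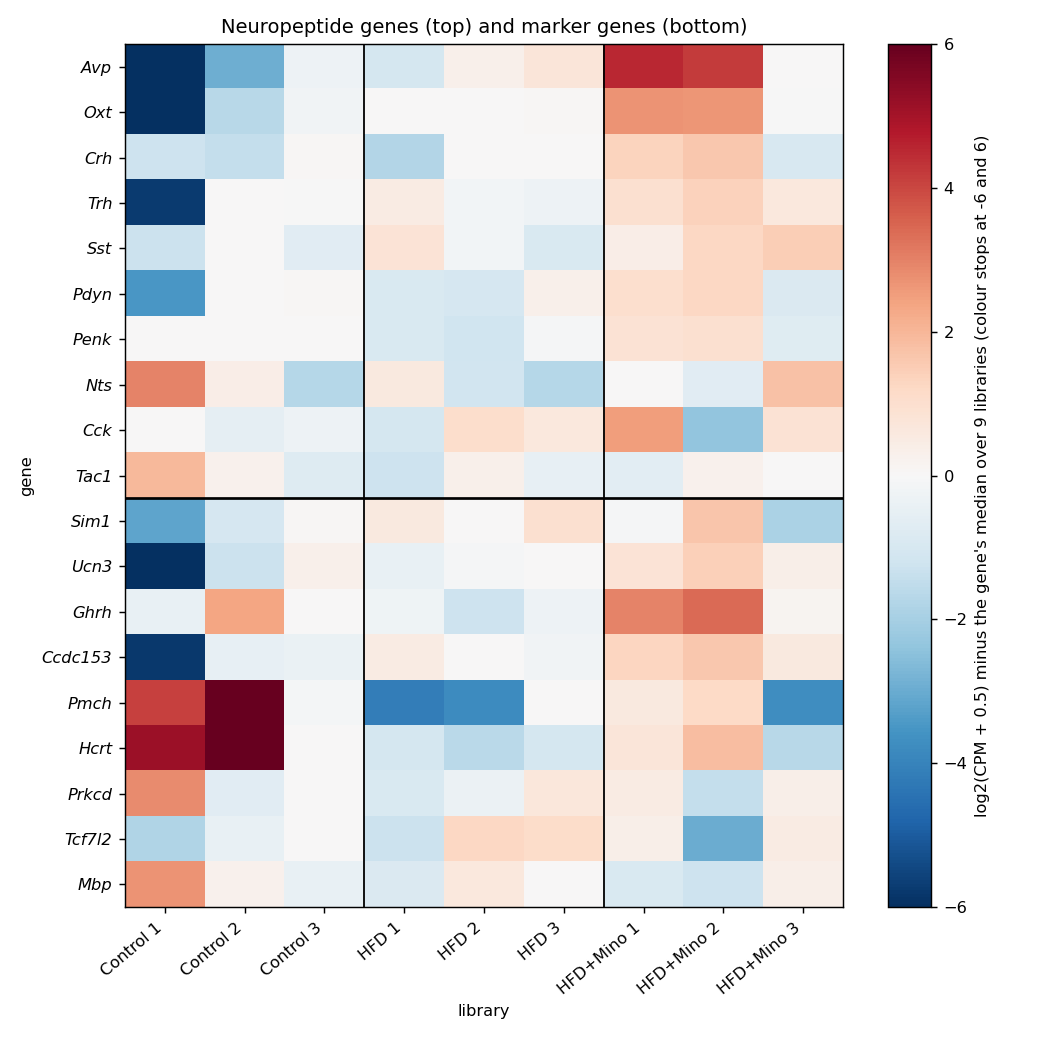
Log2(CPM + 0.5) of each gene minus its median over the 9 libraries, as a heat map with the 10 neuropeptide genes above and 9 marker genes below, libraries in columns by group. Colors stop at -6 and 6. The library labelled Control replicate 1 is low for Avp, Oxt, Trh, Pdyn, Sim1, Ucn3 and Ccdc153 and high for Nts, Tac1 and Mbp, and Avp and Oxt are highest in HFD+Mino replicates 1 and 2.

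No member differed between groups by the threshold used, an adjusted p (Benjamini-Hochberg over all 17344 genes) under 0.01 and a change of at least 1.5-fold in edgeR's quasi-likelihood model of all 9 samples. The count was 0 of 10 for HFD against Control, where 1.74% of all genes were called, 0 of 10 for HFD+Mino against HFD, where 4.15% were called, and 0 of 10 for HFD+Mino against Control, where 0.0% were called. It was 0 of 10 as well in the test of all 3 groups at once, the 3-way test, where 2.13% of all genes were called. The 1.5-fold rule of the 3-way test was applied to HFD alone, compared with the average log2 level of the groups. At an unadjusted p under 0.05 the members numbered 0, 1, 4 and 4 in these tests, against 20.5%, 41.3%, 21.3% and 39.0% of all genes. Without Control replicate 1 they numbered 0, 7, 4 and 5, against 13.6%, 41.6%, 20.0% and 36.6% of all genes. DESeq2 with its own size factors also called 0 members in each of the 4 tests. The 3 comparisons share their groups and are therefore not independent of each other. Spread between animals was wide, and the values of each mouse follow, ordered by the roles of the peptides.

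**Figure D2:**
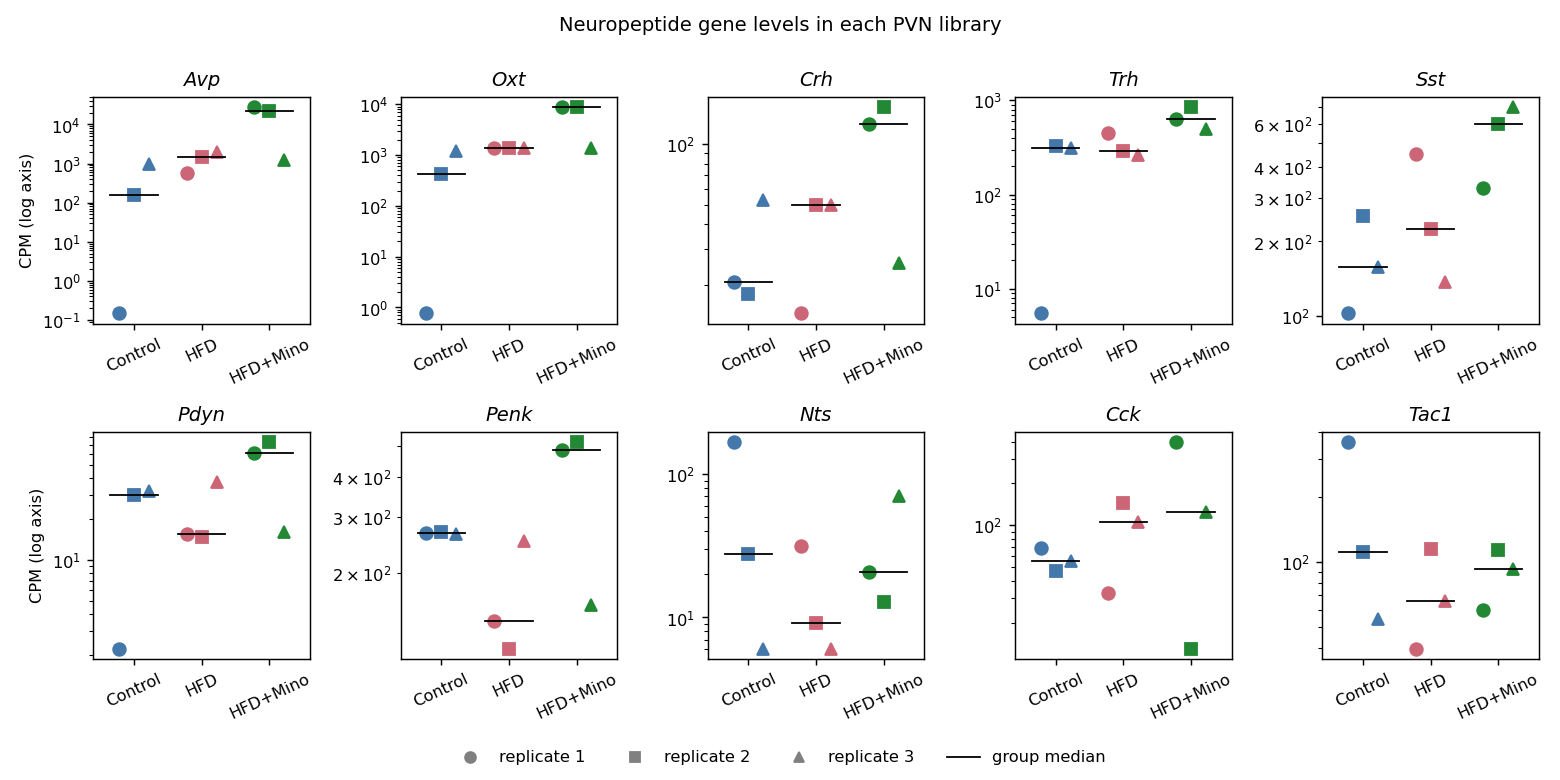
CPM on a log axis for each of the 10 genes in Control, HFD and HFD+Mino, with 1 symbol per mouse (circle, square and triangle for replicates 1, 2 and 3) and the group median as a line. Avp and Oxt are far above the other libraries in HFD+Mino replicates 1 and 2, and HFD+Mino replicate 3 lies within the range of the HFD libraries for Avp.

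Avp had the widest spread within groups of all tested genes with Control replicate 1 included, and ranked 70 of them without it. It was at 0.149, 157 and 990 CPM in Control replicates 1 to 3, at 590, 1487 and 1984 CPM in HFD, and at 28049, 22180 and 1218 CPM in HFD+Mino. In Control replicate 1 this was 6 counts of a library of 42326213, while Avp was the most abundant gene of HFD+Mino replicates 1 and 2, with 2.35% and 1.95% of all counts. HFD+Mino replicate 3 lay between the HFD libraries, so the HFD+Mino and HFD groups overlapped, whereas all 3 HFD+Mino libraries lay above all Control libraries. The log2 difference of HFD+Mino from HFD was 3.66 ± 1.71 (SE, n = 3 against 3; 95% interval -0.08 to 7.41, edgeR adjusted p = 0.128). HFD differed from Control by 1.82 ± 1.58 (SE, edgeR adjusted p = 0.551) and HFD+Mino from Control by 5.49 ± 1.86 (SE, edgeR adjusted p = 0.150).

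Oxt was nearly the same in the 3 HFD mice and spread widely in the other groups. It was at 0.770, 427 and 1192 CPM in Control, at 1402, 1364 and 1409 CPM in HFD, and at 8907, 8696 and 1358 CPM in HFD+Mino. Every HFD library lay above every Control library, as in 19.7% of tested genes, and HFD+Mino replicate 3 lay just below the HFD range while the other 2 libraries of its group lay far above it. The log2 difference was 1.37 ± 1.32 for HFD against Control (SE, edgeR adjusted p = 0.595), 2.18 ± 1.36 for HFD+Mino against HFD (SE, edgeR adjusted p = 0.247) and 3.55 ± 1.44 for HFD+Mino against Control (SE, edgeR adjusted p = 0.195).

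The balance of the 2 magnocellular hormones also moved between libraries. The ratio of Avp to Oxt counts was 0.194, 0.368 and 0.831 in Control, 0.420, 1.09 and 1.41 in HFD, and 3.15, 2.55 and 0.896 in HFD+Mino. Avp therefore outnumbered Oxt in 4 libraries, HFD replicates 2 and 3 and HFD+Mino replicates 1 and 2. Avp made up 75.9% of the pair's counts in HFD+Mino replicate 1 (Wilson 95% interval 75.8 to 76.0) and 16.2% in Control replicate 1 (Wilson 95% interval 7.65 to 31.1, counting error only). Together Avp and Oxt held 94.6% and 93.0% of the CPM of the 10 members in HFD+Mino replicates 1 and 2, 60.4% in HFD+Mino replicate 3, and 0.0925% in Control replicate 1.

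Crh, the releasing hormone of the stress axis, was at 20.6, 18 and 52.6 CPM in Control, at 14.4, 49.8 and 49.8 CPM in HFD, and at 126, 153 and 25.6 CPM in HFD+Mino. HFD+Mino replicates 1 and 2 were the highest of the 9 libraries and HFD+Mino replicate 3 lay inside the range of both other groups. The log2 difference of HFD+Mino from HFD was 1.42 ± 0.65 (SE, edgeR adjusted p = 0.124), that of HFD+Mino from Control 1.74 ± 0.66 (SE, edgeR adjusted p = 0.177) and that of HFD from Control 0.32 ± 0.64 (SE, edgeR adjusted p = 0.816). Crh was not among the members that Control replicate 1 lacked, and it was at its lowest in HFD replicate 1. Without Control replicate 1 the differences of Crh from Control were 1.52 for HFD+Mino and 0.11 for HFD.

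Trh, the releasing hormone of the thyroid axis, was the 1 member whose HFD+Mino libraries all lay above all HFD libraries, an arrangement found in 23.3% of all tested genes. It was at 5.49, 324 and 314 CPM in Control, at 455, 293 and 260 CPM in HFD, and at 632, 852 and 499 CPM in HFD+Mino. Apart from Control replicate 1, the libraries of a group kept within 1.75-fold of each other. The log2 difference of HFD+Mino from HFD was 0.98 ± 0.89 with all samples (SE, edgeR adjusted p = 0.434) and 0.98 without Control replicate 1 (95% interval 0.38 to 1.58, edgeR adjusted p = 0.0243). That of HFD+Mino from Control was 1.62 ± 0.90 (SE, edgeR adjusted p = 0.316) and that of HFD from Control 0.65 ± 0.88 (SE, edgeR adjusted p = 0.718). Without Control replicate 1 the differences from Control were 1.05 for HFD+Mino and 0.07 for HFD.

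Sst, which encodes the inhibitor of growth hormone release, was at 102, 254 and 157 CPM in Control, at 452, 225 and 137 CPM in HFD, and at 331, 600 and 703 CPM in HFD+Mino. The 3 HFD+Mino libraries lay above all Control libraries, and HFD spanned the range between. Sst had the lowest adjusted p of the members in the comparison of HFD+Mino with Control, where its log2 difference was 1.67 ± 0.47 (SE, edgeR adjusted p = 0.132). HFD+Mino differed from HFD by 1.01 ± 0.46 (SE, edgeR adjusted p = 0.122) and HFD from Control by 0.66 ± 0.46 (SE, edgeR adjusted p = 0.442). Without Control replicate 1 the differences of Sst from Control were 1.40 for HFD+Mino and 0.39 for HFD.

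Pdyn, the precursor of the dynorphins that magnocellular vasopressin neurons also make, was at 2.24, 30.1 and 32.1 CPM in Control, at 15.6, 14.7 and 37.2 CPM in HFD, and at 60.8, 72.9 and 16.1 CPM in HFD+Mino. Penk, the precursor of the enkephalins, was at 268, 268 and 265 CPM in Control, at 141, 116 and 252 CPM in HFD, and at 485, 514 and 158 CPM in HFD+Mino. Both genes were highest in HFD+Mino replicates 1 and 2, and in both HFD+Mino replicate 3 lay inside the HFD range. Every HFD library was below every Control library for Penk, as in 16% of tested genes, or 19.2% without Control replicate 1, and Control replicate 3 exceeded HFD replicate 3 only by 265 to 252 CPM.

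Penk had the lowest adjusted p of the members between HFD+Mino and HFD, with a log2 difference of 1.18 ± 0.41 (SE, 95% interval 0.28 to 2.09, edgeR adjusted p = 0.0527). Without HFD+Mino replicate 3 it was 1.56 and passed the threshold (edgeR adjusted p = 0.00287), in a model that called 3815 of 17836 genes in this comparison. HFD differed from Control for Penk by -0.65 ± 0.41 (SE, edgeR adjusted p = 0.396) and HFD+Mino from Control by 0.53 ± 0.41 (SE, edgeR adjusted p = 0.458). For Pdyn the log2 differences were 0.07 ± 0.78 for HFD against Control (SE, edgeR adjusted p = 0.970), 1.15 ± 0.79 for HFD+Mino against HFD (SE, edgeR adjusted p = 0.296) and 1.22 ± 0.79 for HFD+Mino against Control (SE, edgeR adjusted p = 0.384). The first of these was -0.47 without Control replicate 1 and -0.51 without HFD replicate 3. HFD+Mino minus Control for Pdyn was 0.68 without Control replicate 1.

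Nts, which encodes neurotensin, was at 166, 27.8 and 6.06 CPM in Control, at 31.7, 9.14 and 6.07 CPM in HFD, and at 20.7, 12.9 and 70.2 CPM in HFD+Mino. It was highest in Control replicate 1 and second highest in HFD+Mino replicate 3, and the groups overlapped. Tac1, the precursor of substance P and neurokinin A, was at 360, 112 and 54.6 CPM in Control, at 39.6, 115 and 65.8 CPM in HFD, and at 60.2, 113 and 93.3 CPM in HFD+Mino. Its Control replicate 1 also stood above the other 8 libraries, which kept between 39.6 and 115 CPM.

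For HFD against Control, the log2 difference of Tac1 was -1.26 ± 0.60 (SE, edgeR adjusted p = 0.264) and that of Nts -2.10 ± 1.04 (SE, edgeR adjusted p = 0.284). Without Control replicate 1 these were -0.18 for Tac1 and -0.13 for Nts. For HFD+Mino against Control the difference turned from -0.95 to 1.03 for Nts and from -0.98 to 0.095 for Tac1 when Control replicate 1 was left out. HFD+Mino differed from HFD by 1.16 ± 1.02 for Nts (SE, edgeR adjusted p = 0.418) and by 0.28 ± 0.59 for Tac1 (SE, edgeR adjusted p = 0.753).

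Cck, the cholecystokinin gene, was at 68.5, 46.6 and 55.4 CPM in Control, at 32.5, 144 and 106 CPM in HFD, and at 395, 13.0 and 126 CPM in HFD+Mino. Its lowest and its highest library of all 9 were both in HFD+Mino, replicates 2 and 1, which were also the 2 libraries highest in Avp and Oxt. Tcf7l2, a transcription factor of thalamic neurons that lie dorsal to the PVN, was also lowest in HFD+Mino replicate 2, at 16.1 CPM, and its part in the Cck values was not tested. The log2 difference was 0.73 ± 0.84 for HFD against Control (SE, edgeR adjusted p = 0.662), 0.92 ± 0.84 for HFD+Mino against HFD (SE, edgeR adjusted p = 0.438) and 1.65 ± 0.86 for HFD+Mino against Control (SE, edgeR adjusted p = 0.288).

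Across the members, 7 were higher and 3 lower in HFD than in Control, with a median log2 difference of 0.49 against 0.00 over all genes. Without Control replicate 1, 6 were higher and 4 lower, with a median of 0.088 against 0.03. All 10 were higher in HFD+Mino than in HFD, with a median of 1.15 against 0.01 over all genes, and 8 of 10 were higher in HFD+Mino than in Control, with a median of 1.63 against -0.02 over all genes. Without Control replicate 1 it was 10 of 10, with a median of 1.23 against -0.01. None of these differences passed the threshold. The rise from HFD to HFD+Mino was not particular to the members. Of the 8 tested peptide genes of neighboring regions, 7 were higher in HFD+Mino than in HFD, with a median log2 difference of 1.54. Levels were also divided by the summed CPM of Sim1 and Otp, which are nearly absent from Control replicate 1. Scaled in this way, 2 of 10 members were higher in HFD than in Control (Avp and Oxt). All 10 were higher in HFD+Mino than in HFD, and 5 of 10 were higher in HFD+Mino than in Control. Sim1 was also low in HFD+Mino replicate 3, at 2.51 CPM against 10.1 and 35.7 CPM in replicates 1 and 2, which raised the scaled values of that library. No scaled comparison was made without Control replicate 1 or without HFD+Mino replicate 3. Avp, Oxt, Trh and Sst had all HFD+Mino libraries above all Control libraries, an arrangement found in 8.93% of tested genes, or 16.3% without Control replicate 1, where the same 4 members showed it.

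**Figure D3:**
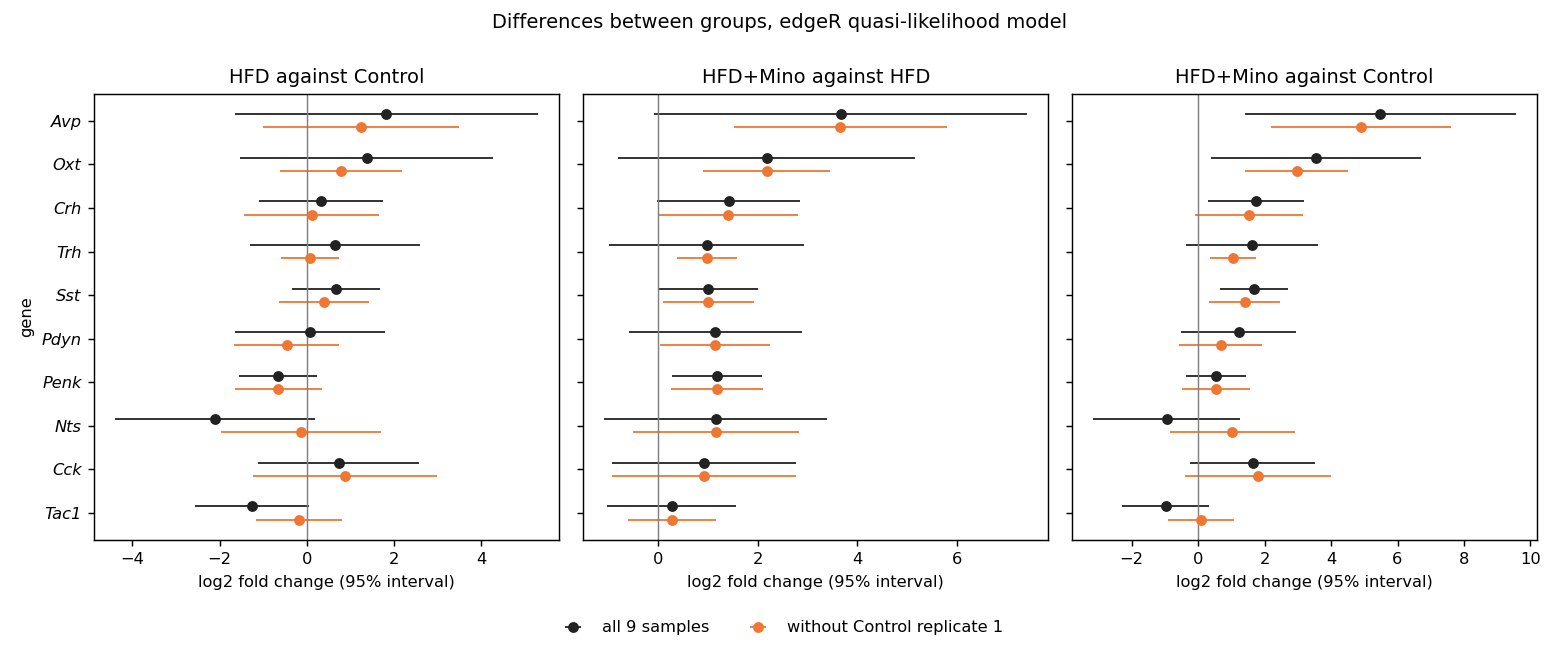
Log2 fold change (horizontal axis) with its 95% interval for each of the 10 genes in the 3 comparisons, from edgeR's quasi-likelihood model of all 9 samples (black) and without Control replicate 1 (orange). In HFD+Mino against HFD all 10 points lie above 0, and the interval of Avp runs from -0.08 to 7.41 with all samples.

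Leaving out Control replicate 1 narrowed the intervals of the genes this library lacked, since the 3 groups share 1 estimate of the spread. In HFD+Mino against HFD the log2 difference of Avp was then 3.66 (95% interval 1.52 to 5.80, edgeR adjusted p = 0.0198) and that of Oxt 2.18 (95% interval 0.91 to 3.46, edgeR adjusted p = 0.0198). No member was below the 0.01 threshold in any of the 4 tests without that library, in which 1.01%, 5.27%, 0.0% and 1.77% of all genes were called. An adjusted p under 0.05 was tried without that library after the data were seen, with the fold rule kept. Avp, Oxt and Trh were then called in HFD+Mino against HFD (3 of 10 members, against 28.4% of all genes). Avp was called in the 3-way test (1 of 10, against 11.6%). Oxt (edgeR adjusted p = 0.0196) and Trh (edgeR adjusted p = 0.0341) were also under 0.05 in the 3-way test. They missed only its fold rule, with HFD at -0.468 and -0.303 log2 from the average of the groups. No member was called in HFD against Control (2.86% of all genes) or in HFD+Mino against Control (0.0%). HFD minus Control was 1.24 for Avp (95% interval -1.0 to 3.48) and 0.78 for Oxt (95% interval -0.62 to 2.17) in the same model. HFD+Mino minus Control was 4.90 for Avp and 2.96 for Oxt (edgeR adjusted p = 0.147 for both).

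Gene length moved with the members' difference between HFD+Mino and HFD. The members are short, with a median exon length of 1312.5 nt against 4334 nt over the tested genes with a known length, and 8 of 10 are under 2000 nt. Over all tested genes, the median log2 difference of HFD+Mino from HFD was 1.34 for exon lengths under 1000 nt (389 genes), 0.94 from 1000 to 1999 nt, 0.22 from 2000 to 3999 nt, -0.35 from 4000 to 7999 nt and -0.58 from 8000 nt. Genes under 2000 nt lay 0.92 and 0.74 log2 above their own mean over the 9 libraries in HFD+Mino replicates 1 and 2, as a median, and between -0.43 and 0.10 in the other 7 libraries.

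With a smooth trend on exon length removed from each library, the log2 difference of HFD+Mino from HFD was 1.91 for Avp, 0.97 for Pdyn, 0.53 for Oxt, 0.52 for Nts, 0.33 for Crh, 0.32 for Penk, 0.27 for Tac1, 0.07 for Trh, 0.06 for Sst and -0.10 for Cck. Against Control it was 3.37 for Avp and 1.55 for Oxt, and between -1.15 for Nts and 1.15 for Pdyn in the other 8 members. In HFD against Control it was 1.45 for Avp and 1.02 for Oxt. Whether the length trend arose in the tissue or in the libraries was not tested.

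**Figure D4:**
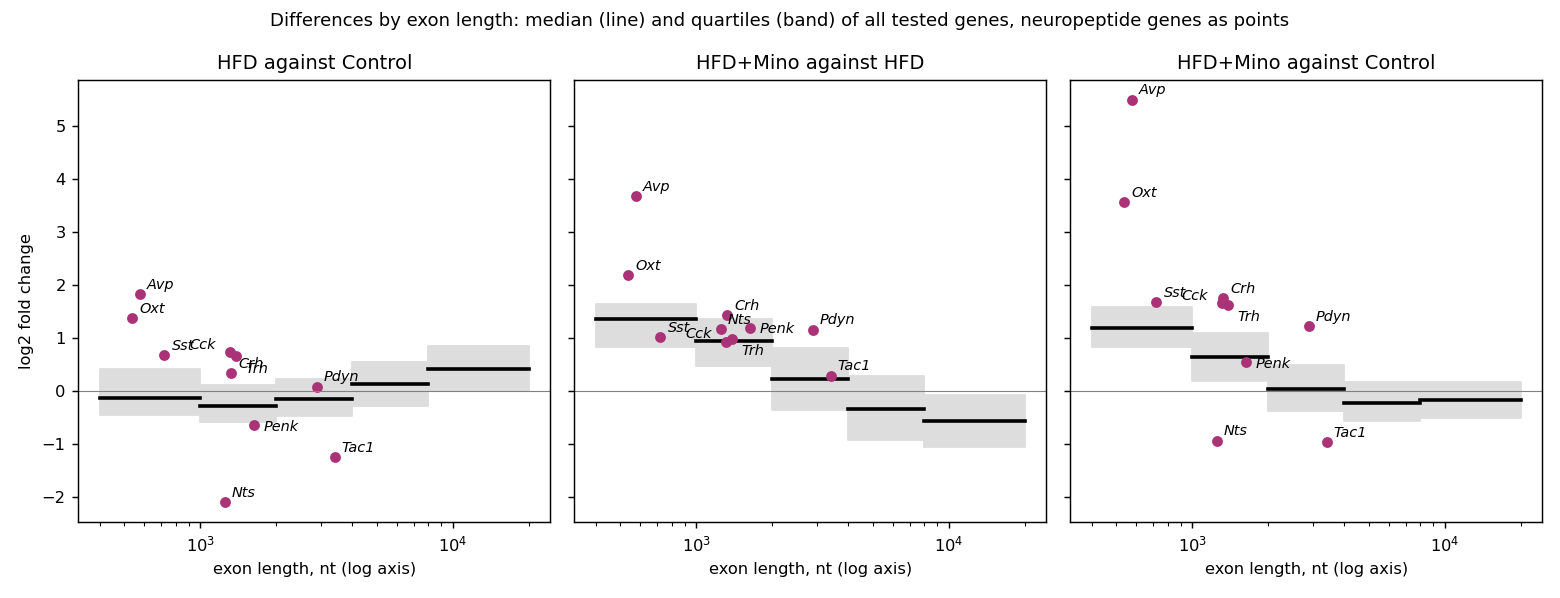
Log2 fold change against exon length in nt on a log axis for the 3 comparisons, with the median (line) and quartiles (band) of all tested genes in 5 length bins and the 10 neuropeptide genes as points. In HFD+Mino against HFD the median falls from 1.34 under 1000 nt to -0.58 from 8000 nt, and Avp, Oxt, Crh and Pdyn lie above the band of their bin.

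Levels of different genes were compared as CPM per kilobase of exon. In Control the mean order was Oxt (1005 ± 1124, SD, n = 3), Avp (663 ± 922), Sst (237 ± 107), Penk (163 ± 1.16), Trh (155 ± 131), Nts (53.5 ± 69.6), Tac1 (51.6 ± 47.7), Cck (43.6 ± 8.44), Crh (23.0 ± 14.6) and Pdyn (7.43 ± 5.78). No 2 neighbors of this order were further apart than the larger of their SDs except Cck and Crh, and Crh and Pdyn. Over Control replicates 2 and 3 alone the mean order was Oxt (1507), Avp (994), Sst (285), Trh (230), Penk (163), Cck (39.1), Crh (26.7), Tac1 (24.5), Nts (13.6) and Pdyn (10.8), so Nts stood ninth where it stood sixth with replicate 1. In HFD the order was Oxt (2592 ± 45.2), Avp (2346 ± 1225), Sst (376 ± 225), Trh (243 ± 75.6), Penk (104 ± 44.4), Cck (72.0 ± 43.3), Crh (28.8 ± 15.5), Tac1 (21.6 ± 11.2), Nts (12.5 ± 11.2) and Pdyn (7.79 ± 4.41). There Avp and Sst, and Trh and Penk, were further apart than the larger of their SDs, and the other neighbors were not.

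In HFD+Mino the order per kilobase was Avp (29721 ± 24447), Oxt (11770 ± 8005), Sst (755 ± 267), Trh (478 ± 129), Penk (236 ± 121), Cck (136 ± 150), Crh (77.0 ± 51.0), Nts (27.7 ± 24.9), Tac1 (26.2 ± 7.91) and Pdyn (17.3 ± 10.4). The neighbors further apart than the larger SD were Oxt and Sst, Sst and Trh, and Trh and Penk. The magnocellular hormones held the first 2 places and Sst the third in each group by the mean, although Sst exceeded both hormones in Control replicate 1.

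Within groups, the SD of log2 CPM was 4.02 for Avp and 3.40 for Oxt, the first and second of 17344 tested genes, whose median was 0.442. Trh followed at 1.98 (rank 71), Nts at 1.71 (rank 180), Cck at 1.59 (rank 311), Pdyn at 1.49 (rank 472), Crh at 1.12 (rank 1532) and Tac1 at 0.95 (rank 2324). Sst at 0.71 (rank 4038) and Penk at 0.65 (rank 4755) varied least. Without Control replicate 1 the ranks were 70 for Avp (SD 1.89), 1504 for Oxt (SD 1.09) and 10419 for Trh (SD 0.36), whereas Cck rose to rank 165 (SD 1.74). The spread of Trh thus rested on that library, and that of Cck did not.

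**Figure D5:**
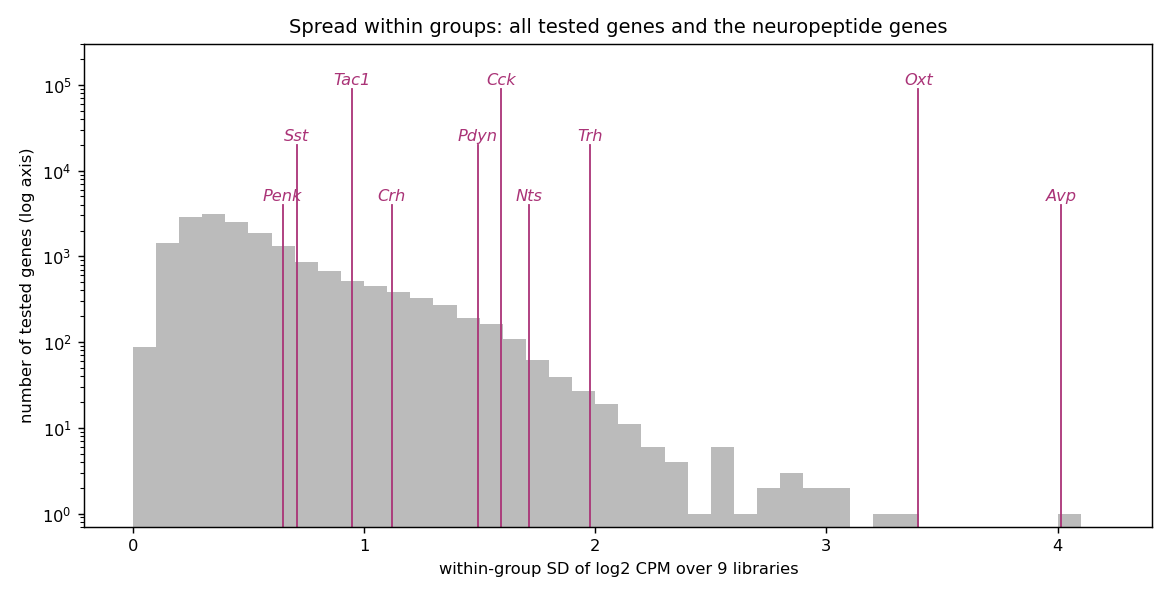
Histogram of the within-group SD of log2 CPM over the 9 libraries for all 17344 tested genes (number of genes on a log axis), with vertical lines at the 10 neuropeptide genes. Avp at 4.02 and Oxt at 3.40 lie at the right end, and Penk at 0.65 and Sst at 0.71 are the lowest members.

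The genes whose levels followed each member most closely were ranked by the root mean square difference of log2 CPM over the 9 samples, each gene centred on its own mean. Oxt was nearest to Avp (1.17), followed by Tmem212 (1.91) and Ucn3 (2.13), and Oxt itself was closest to Tmem212 (0.79), Ucn3 (1.07) and Avp (1.17). Trh lay within 0.18 of 1600029I14Rik, 0.20 of Nme9 and 0.23 of Daw1, the last 2 being genes of motile cilia. Nearest to Sst were Mb (0.30), Serpinb6b (0.33) and Ak8 (0.40), and nearest to Crh were Dapl1 (0.46), the gene with Entrez identifier 100503578 (0.47) and Pgf (0.53). Pdyn was followed by Tfap2b (0.41), Cpa5 (0.41) and Glipr1l1 (0.42), and Penk by Ackr1 (0.25), Rad54b (0.27) and Plin2 (0.30). For Tac1 they were Gatm (0.24), Car2 (0.28) and Pdlim1 (0.28), for Cck Rasl11a (0.46), Stum (0.51) and Cldn6 (0.55), and for Nts Sphk1 (0.74), Ctsk (0.77) and H2-Bl (0.77). These distances cover 9 libraries that differed in depth, and genes that were extreme in the same library lie close by this measure. Avp, Oxt and Trh were lowest in Control replicate 1, and the nearest genes were not ranked without it.

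The 12 processing genes, which include the prohormone convertases Pcsk1 and Pcsk2, summed to 6110 CPM in Control replicate 3 at the lowest and 7797 CPM in HFD+Mino replicate 3 at the highest, and none of the 12 was called in any test. Most of this sum came from Cpe and Scg2, and single genes ranged more widely, Pcsk1 from 29.2 to 222 CPM and Scg5, a chaperone of Pcsk2, from 209 to 691 CPM. Scg5 was at 219, 222 and 209 CPM in HFD and at 627, 691 and 293 CPM in HFD+Mino, a log2 difference of 1.31 (edgeR adjusted p = 0.0135). The highest per length was Cpe, the carboxypeptidase that trims peptide precursors, at 3791 ± 918, 3331 ± 648 and 3369 ± 811 CPM in Control, HFD and HFD+Mino (SD, n = 3). Of the 24 receptor genes of the 10 peptides, 23 could be tested and none was called. Their median log2 difference was -0.53 for HFD+Mino against HFD, with 17 of 23 lower, against 0.01 over all genes. Differences of the gene lists, here and below, were not adjusted for exon length, along which this comparison changed over all genes. The highest per length was Ntsr2, a neurotensin receptor, at 446 ± 78.4, 364 ± 34.9 and 448 ± 104 CPM (SD, n = 3).

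Of the 6 genes whose products bind or degrade these peptides, 1 was called, in HFD+Mino against HFD, where 4.15% of all genes were called. Ece1, the endothelin-converting enzyme that also cleaves several neuropeptides, was at 23.0, 37.7 and 65.2 CPM in Control, at 109, 96.6 and 115 CPM in HFD, and at 27.6, 28.7 and 37.8 CPM in HFD+Mino. It was lower in HFD+Mino than in HFD by a log2 difference of -1.77 ± 0.34 (SE, edgeR adjusted p = 0.00846), and HFD stood above Control by 1.35 ± 0.33 (SE, edgeR adjusted p = 0.0373), which did not pass the threshold. Ece1 was also the gene of this list with the highest level per length.

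Among 14 other peptide genes of the PVN and its surroundings, none was called, and 11 of 14 were higher in HFD+Mino than in HFD, with a median log2 difference of 0.98. Gal, the galanin gene, was the highest per length and was at 25.4, 66.4 and 28.4 CPM in Control, at 155, 56.1 and 26.4 CPM in HFD, and at 167, 203 and 292 CPM in HFD+Mino. All 3 HFD+Mino libraries were above the other 6, with log2 differences of 1.48 ± 0.57 from HFD (SE, edgeR adjusted p = 0.0745) and 2.46 ± 0.59 from Control (SE, edgeR adjusted p = 0.132). Among 10 regulators of these neurons none was called. Sim1 was at 5.69 ± 5.23, 16.3 ± 5.42 and 16.1 ± 17.4 CPM in Control, HFD and HFD+Mino (SD, n = 3), Otp at 1.21 ± 1.41, 1.09 ± 0.0999 and 0.502 ± 0.123 CPM, and Slc17a6, the vesicular glutamate transporter of these neurons and the highest of the list per length, at 263 ± 28.7, 325 ± 139 and 250 ± 65.6 CPM.

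Marker genes of other cells and regions moved with some of the members. The 7 ependymal and choroid markers summed to 24.6 CPM in Control replicate 1, to 86.4 and 103 CPM in the other Control libraries, to 110 to 206 CPM in HFD and to 213 to 398 CPM in HFD+Mino, where the highest sum was that of replicate 2. Ccdc153 and Rarres2 made up most of the HFD+Mino sums, and 3 of the 7 markers were higher and 4 lower in HFD+Mino than in HFD, with a median log2 difference of -0.02. The highest of them per length, Ccdc153, was at 134, 172 and 83.6 CPM in HFD+Mino. The 6 oligodendrocyte markers used here, led by Mbp, summed to 22284 CPM in Control replicate 1 and to 1645 to 5595 CPM elsewhere. The 9 peptides of neighboring regions, led by Pmch, summed to 3403 CPM in Control replicate 2, to 470 CPM in Control replicate 1 and to 11.4 to 80.8 CPM elsewhere.

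The 6 endothelial markers, led by Ly6c1, summed to 386 and 311 CPM in HFD+Mino replicates 1 and 2, the libraries highest in Avp and Oxt, and to 108 to 253 CPM in the other 7. Ly6c1 alone supplied 297 and 247 CPM of the sums in these 2 libraries, and 4 of the 6 markers were lower in HFD+Mino than in HFD, with a median log2 difference of -0.45. One of them, Kdr, the receptor for vascular endothelial growth factor, was the 1 marker called in any test, at 13.1 ± 2.99 CPM in HFD and 2.92 ± 1.12 CPM in HFD+Mino (SD, n = 3; log2 difference -2.16 ± 0.37, SE, edgeR adjusted p = 0.00609). In that comparison 4.15% of all genes were called. The 6 thalamus markers, led by Tcf7l2, ranged from 60.6 CPM in HFD+Mino replicate 2 to 486 CPM in HFD replicate 3. Sums of the 12 neuron markers, led by Snap25, were 4806 to 8779 CPM, those of the 7 astrocyte markers, led by S100b, 1833 to 2838 CPM, and those of the 7 microglia markers, led by C1qa, 169 to 258 CPM. The part of each of these in the differences between groups of the members was not tested.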

How the data were processed

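PVN punches of 9 mice were sequenced in bulk, with libraries made by a kit that amplifies cDNA from little RNA and fragmented by a transposase, and read in pairs of 50 bases. The authors aligned reads to mm10 with HISAT2 and deposited the featureCounts count of reads on each gene, without normalization. Versions, strand use and treatment of reads with several positions were not given in the sources used here. All 9 columns held whole numbers.

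Counts were fitted in edgeR 4.0.16 (R 4.3.3) with filterByExpr, TMM scaling and 1 quasi-likelihood model with a term for each group over all 9 samples, which then share 1 estimate of spread. A gene was called at a Benjamini-Hochberg FDR under 0.01 and a change of at least 1.5-fold. The 3-way test asked whether the 3 groups differed, but its fold rule looked at HFD alone. HFD had to lie at least 1.5-fold above or below the average log2 level of the groups. A gene that changed mainly in HFD+Mino could therefore miss the call at any p. The 9 samples are numbered as in their titles. Each p-value sets a difference between groups against the spread between mice within groups, estimated over all samples in the model. Per-length levels used GENCODE M21 exon lengths. Within-group SDs and distances used log2 CPM with a prior count of 2. Reads carry no molecular identifiers, so intervals on count shares cover counting error only. The code was tested on simulated data.

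The members, gene lists and tests were chosen with earlier results of these data known. The rule for named genes took all members, called genes of the lists, the gene of each list highest per length, Sim1, Otp and the 3 nearest genes of each member. Ucn3, Hcrt, Ghrh, Prkcd, Rora, Lef1, Tnnt1, Plekhg1, Pcsk1, Pcsk2, Scg2, Scg5, Rarres2, Rn45s and A830012C17Rik were named after their values or positions were seen. The lists were written from general knowledge, and 1 gene of them is not reported here. Alternatives were DESeq2 1.42.0, the likelihood ratio test, other size factors and filters, length and GC trends removed, a replicate block, scaling to Sim1 and Otp, other thresholds and each sample left out.

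Control and HFD+Mino samples of the same number deviated together from their group means (r = 0.135, 0.164 and 0.292 across genes), while HFD samples did not deviate with the same number of either group (r from -0.152 to -0.006). Samples of different number gave r from -0.162 to 0.026 between Control and HFD+Mino. Control replicate 2 and HFD replicate 1, which differ in number, gave 0.167. These are the numbers of the titles, and the columns of the count table number the HFD samples otherwise. The replicate block used the title numbers as well. Any pairing of Control with HFD+Mino would rest on the counts alone.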

Additional observations from a re-analysis of the deposited data

How the results depend on the processing

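With all 9 samples, 0 members were called in the 3 comparisons in pairs under each alternative that kept every sample. The exceptions arose in the 3-way test, where the likelihood ratio test called 1 member (Avp) among 2270 of 17344 genes, and from leaving samples out. Leaving out each replicate in turn gave 0 to 1 members in the 3-way test and in HFD+Mino against HFD, the 1 being Penk without HFD+Mino replicate 3, and 0 to 0 in the other 2 comparisons. Without HFD+Mino replicate 3 the 3-way test called 2445 of 17836 genes. The replicate block, a fit with the replicate number as a term, left the number of called members at 0 in all 4 tests and changed no member's call. HFD+Mino minus Control for Avp was 6.93 with the block against 5.49 without it. Alternatives added after seeing the data, without Control replicate 1, gave 3 members in HFD+Mino against HFD at an FDR under 0.05 (Avp, Oxt and Trh). DESeq2 gave the same 3 at the original threshold. Each of these alternatives gave 1 member in the 3-way test (Avp), where at an FDR under 0.05 Oxt and Trh missed only the fold rule. DESeq2 gave 2 in HFD+Mino against Control (Avp and Oxt). Numbers of all genes called also moved: DESeq2 with all samples called 1198 genes in HFD against Control (302 with edgeR), 3992 in HFD+Mino against HFD (719), 276 in HFD+Mino against Control (0) and 2389 in the 3-way test (370). DESeq2 without Control replicate 1 called 4292 of 17821 genes in HFD+Mino against HFD, 268 in HFD+Mino against Control and 2146 in the 3-way test. Leaving out each replicate in turn with edgeR gave 29 (without HFD replicate 3) to 3815 genes (without HFD+Mino replicate 3) in HFD+Mino against HFD and 0 to 1120 in HFD+Mino against Control, the latter without HFD+Mino replicate 3.

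The sign of a difference turned under at least 1 alternative for 8 of 10 members, or 5 of 10 (Pdyn, Penk, Nts, Cck and Tac1) when scaling to Sim1 and Otp is left aside. HFD minus Control for Pdyn went from 0.07 to -0.47 without Control replicate 1 at either FDR and to -0.48 with DESeq2 as well, and ranged from -0.51 (without HFD replicate 3) to 0.48 over the samples left out. HFD+Mino minus HFD for Cck went to -0.10 with the length trend removed and ranged from -0.44 (without HFD+Mino replicate 1) to 1.47, and for Tac1 it ranged from -0.024 (without HFD replicate 1) to 0.76. HFD+Mino minus Control for Penk went to -0.11 with the length trend removed. For Nts it ranged from -1.99 to 1.03 and for Tac1 from -1.41 to 0.095, the highest value being that without Control replicate 1 in both, and with DESeq2 Tac1 was at 0.093. The causes were not tested. Scaled to Sim1 and Otp, HFD minus Control ranged from -6.29 for Nts to 1.34 for Avp and turned negative for Crh (-2.22), Trh (-0.44), Sst (-1.89), Pdyn (-1.44) and Cck (-2.44), and HFD+Mino minus Control turned negative for Crh (-0.45), Penk (-1.88) and Cck (-0.35). Each scaled value compared group means of the ratio of a member to that sum. In Control replicate 1 the divisor was Sim1 at 0.770 CPM, with no Otp count. Ratios in that library were therefore high for members it did not lack, such as Nts at 166 CPM. The divisor was also low in HFD+Mino replicate 3, with Sim1 at 2.51 CPM and Otp at 0.519 CPM. The scaled values were not computed without either library. Members had at least 31 counts in every library, apart from Avp in Control replicate 1 (6 counts).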

Other observations

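Without Control replicate 1, Pdyn and Penk had nearly the same pattern over the remaining 8 libraries, with a root mean square difference of log2 CPM of 0.17 after each was centred on its own mean, against 1.22 with that library. The pair was chosen after its values were seen, and the similarity was not tested. The low library of Pdyn was Control replicate 1 at 2.24 CPM, where Penk was at 268 CPM. Over the 9 libraries the closest pair of members was Crh and Penk, at 0.85.

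Ghrh, the growth hormone-releasing hormone gene, was at 4.12, 31.5 and 5.71 CPM in Control, at 4.62, 2.12 and 4.56 CPM in HFD, and at 48, 64 and 6.39 CPM in HFD+Mino. Prkcd, a kinase gene of thalamic neurons, was at 266 CPM in Control replicate 1 and at 13.4 to 60.6 CPM elsewhere. The other thalamus markers were not alike. Tcf7l2 was at 36.9 CPM in Control replicate 1 and at 16.1 to 306 CPM elsewhere. Lef1 and Plekhg1 also lay within their range elsewhere, while Rora and Tnnt1 were highest in Control replicate 1.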
